A study of Homo sapiens with 6 samples.

Results

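The tripartite motif (TRIM) genes were compared between WM164 melanoma cells that tolerated a BRAF inhibitor and the parental culture. Members were the genes whose symbol begins with TRIM and a digit, read from probe sets that the platform annotation assigns to exactly 1 gene symbol. The annotation gave 67 such probe sets for 55 genes, out of 18417 genes tested, and each gene was represented by its brightest probe set, by the mean of the 6 arrays. One of the 55, TRIM67-AS1, is a noncoding antisense transcript. A further 25 probe sets carried a TRIM symbol together with other symbols, and the 20 TRIM symbols found only there were not analysed here.

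Induced drug tolerant cells (IDTC, 3 arrays) were WM164 cells kept in 500 nM PLX4032 for 16 days, with inhibitor and medium renewed every 3 days. PLX4032, or vemurafenib, inhibits mutant BRAF. Parent cells (3 arrays) were WM164 cells given DMSO, the vehicle, for a length of time that the labels do not state, so drug and time in culture cannot be told apart. Both groups are 1 BRAF-mutated line from a melanoma lymph node metastasis, grown in RPMI with 5% FCS. Separate RNA isolations are stated but separate experiments are not, so a p-value here gauges only how these particular samples vary, and that variation may be technical.

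TRIM proteins usually carry a RING finger, 1 or more B-boxes and a coiled coil, followed by a C-terminal part that differs between classes and binds the target. The RING finger makes most of them E3 ubiquitin ligases, which bring a ubiquitin-loaded E2 enzyme to a substrate. Members act in antiviral sensing, in transcriptional repression, along microtubules and in muscle protein turnover, and several lack the RING finger.

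Promoter sequences are shown for the members that changed by 2-fold or more and have an entry in the RefSeq table of build GRCh38.p14, which held 43 of the 55 genes. Each run gives the 250 bases before the annotated start, 5′ to 3′ on the gene's strand. The TRIM63 window lies at chr1:26067631-26067880 on the minus strand, the TRIM51 window at chr11:55883047-55883296 on the plus strand, and the TRIM14 window at chr9:98119223-98119472 on the minus strand. Capitals mark matches, on either strand, to the E-boxes CACGTG and CATGTG, the AP-1 site TGANTCA, the core of the interferon-stimulated response element (ISRE, GAAA and GAAA with any 2 bases between) and the GC box GGGCGG.
TRIM63: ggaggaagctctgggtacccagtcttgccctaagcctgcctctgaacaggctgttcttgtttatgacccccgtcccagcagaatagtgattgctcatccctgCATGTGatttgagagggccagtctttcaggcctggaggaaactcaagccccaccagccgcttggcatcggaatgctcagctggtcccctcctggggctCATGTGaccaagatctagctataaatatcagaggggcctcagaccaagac
TRIM51: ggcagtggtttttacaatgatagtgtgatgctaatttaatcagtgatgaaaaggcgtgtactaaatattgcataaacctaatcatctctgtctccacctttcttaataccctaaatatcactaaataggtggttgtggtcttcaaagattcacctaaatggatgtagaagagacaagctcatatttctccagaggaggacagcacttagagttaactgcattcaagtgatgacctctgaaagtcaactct
TRIM14: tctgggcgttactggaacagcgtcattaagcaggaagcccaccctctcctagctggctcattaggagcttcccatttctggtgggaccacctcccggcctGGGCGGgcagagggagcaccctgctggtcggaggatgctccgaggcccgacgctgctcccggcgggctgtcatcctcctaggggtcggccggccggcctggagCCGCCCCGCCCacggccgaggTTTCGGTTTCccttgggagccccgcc

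The TRIM63 window held 2 CATGTG matches, starting 148 and 50 bases before the gene's start. The TRIM14 window held an ISRE core match starting 26 bases before the start and GC box matches at 150, 47 and 42, the last 2 of which share a base. None of these letters occurred in the TRIM51 window. A match describes the sequence and no binding was measured.

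Of 7 melanocyte lineage markers, 5 rose in IDTC cells (MLANA, PAX3, TYR, PMEL and SOX10), 1 fell (S100B) and MITF, at -0.04 ± 0.06, was not called. That is 85.7% called, and all 7 lie outside the dimmest 40% of genes, where 65% of all genes were called. Over all genes, dim ones included, 46.6% were called, 21.7% higher and 24.9% lower. The mean log2 level of these 7 markers was 11.30 to 11.39 in IDTC arrays and 10.65 to 10.72 in Parent arrays. The keratinocyte, endothelial and fibroblast markers averaged 5.26 to 5.87 in IDTC arrays and 5.21 to 5.98 in Parent arrays. Levels of different probe sets are not comparable and the table has no detection call, so these means describe each list and do not by themselves show which cell type was present. The immune cell markers averaged 5.55 to 5.69 in IDTC arrays and 6.31 in Parent arrays. Of those 8, LYZ (-3.03), FCER1G (-2.13) and CD68 (-0.76) fell and MS4A1 (0.37) rose, while PTPRC, the pan-leukocyte marker, stood at 3.81 in IDTC and 3.67 in Parent cells and was not called. Of the other marker lists, KRT15, LUM and PDGFRA fell, FAP rose and no endothelial marker of 8 was called by limma or had an unadjusted p under 0.05. The part of these markers in the TRIM results was not tested. All 12 ERK output genes, which report signalling downstream of BRAF, fell, beside 24.9% of all genes called lower. The fall on the log2 scale was 5.24 for SPRY4, 4.24 for ETV4 and 2.46 for ETV1. S100B, PMEL, SOX10, MITF, MS4A1 and PTPRC were named after their values were seen.

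In IDTC cells 9 TRIM genes rose and 13 fell, while 33 were not called. TRIM63 rose most and TRIM51 fell most. The calls came from limma with Benjamini-Hochberg adjustment over 18417 genes, at an adjusted p under 0.05, and fold changes are IDTC minus Parent. The 22 called were 40% of the TRIM genes, against a background of 46.6% of all genes. The 9 that rose stand beside 21.7% of all genes called higher, and the 13 that fell beside 24.9% called lower. The count of TRIM genes called was thus near or under the background. The median log2 fold change was -0.05 over TRIM genes and -0.01 over all genes, and the median size of change without sign was 0.17 and 0.21. After re-centring each array on the median of the genes tested, a scaling added after the data were seen, the split was 11 higher and 11 lower, and the TRIM median was 0.01.

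**Figure D1:**
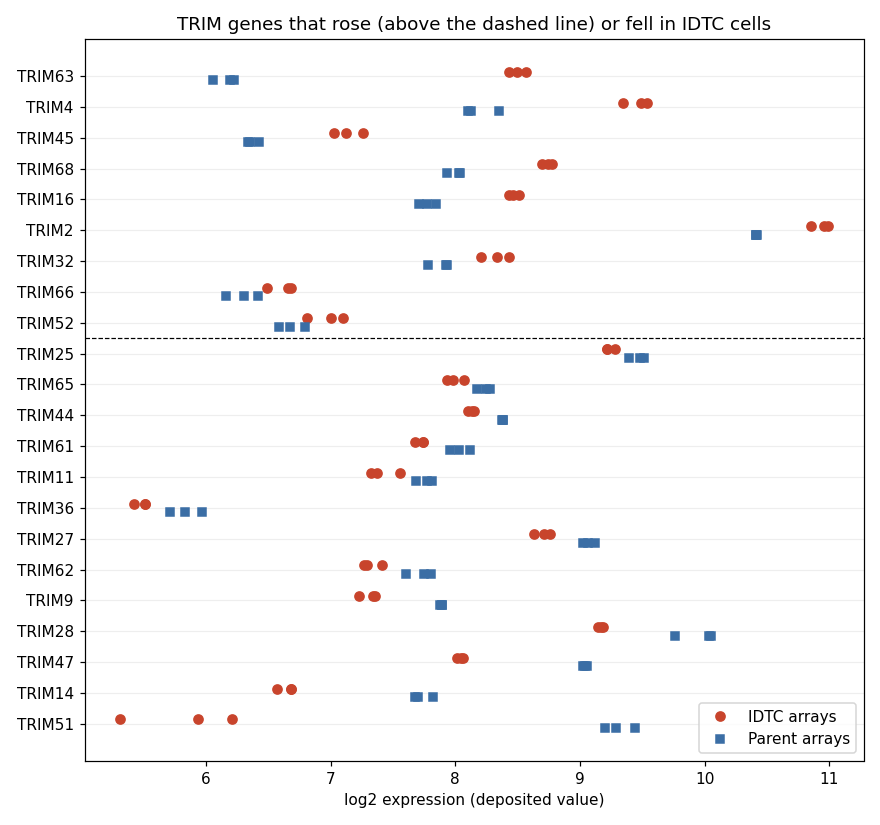
The deposited log2 expression of the 22 called TRIM genes on each array, with IDTC arrays as circles and Parent arrays as squares. The 9 genes above the dashed line rose and the 13 below it fell, and in each the 3 IDTC values lay wholly above or wholly below the 3 Parent values.

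Of the 17 TRIM genes among the dimmest 40% of all genes, 1 was called, TRIM36, beside 19% of all genes in that dim range. Among the 38 brighter ones 21 were called, or 55.3%, beside 65% of all genes outside the dimmest 40%. The 3 IDTC values and the 3 Parent values did not overlap for 29 TRIM genes, 52.7% beside 54.1% of all genes. Of the 22 calls 11 were under 0.5 in absolute log2 fold change.

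A change of 2-fold or more was called for 4 TRIM genes, or 7.27%, beside 9.21% of all genes. TRIM63 and TRIM4 rose (3.81% of all genes were called higher at that size), and TRIM51 and TRIM14 fell (5.4% of all genes were called lower).

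TRIM63 (probe set 7913907) encodes MuRF1, a ligase of striated muscle that marks sarcomere proteins for degradation during atrophy. Its log2 expression was 8.56, 8.49 and 8.43 in IDTC cells, against 6.22, 6.05 and 6.19 in Parent cells. The groups lay more than 2 log2 units apart. The log2 fold change was 2.34 ± 0.07 (SE), or 5.07-fold, with a limma adjusted p of 4.91e-07, and it ranked 64 of 18417 genes counted from the highest. The other 2 muscle RING finger genes did not pass the test. TRIM55 had a log2 fold change of 0.00 with a 95% confidence interval of -0.11 to 0.11, and TRIM54 had -0.15 with an interval of -0.29 to -0.01 and an adjusted p of 0.0706. Both lay among the dimmest 40% of genes, where background signal can hide a change.

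TRIM4 (probe set 8141363) is a PRY-SPRY ligase reported to add ubiquitin to the RNA sensor RIG-I. It measured 9.54, 9.49 and 9.34 in IDTC cells, against 8.35, 8.10 and 8.13 in Parent cells. Every IDTC value was about 1 log2 unit or more above every Parent value. The log2 fold change was 1.26 ± 0.09 (2.4-fold, limma adjusted p 1.87e-05).

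TRIM51 (probe set 7939954), a PRY-SPRY gene, measured 5.94, 6.21 and 5.31 in IDTC cells, against 9.44, 9.20 and 9.29 in Parent cells. The IDTC values spread more widely than those of any other called TRIM gene, and all lay far under the Parent values. It fell by 3.49 ± 0.21 on the log2 scale (11.2-fold, limma adjusted p 9.52e-06), rank 16 of 18417 genes counted from the lowest. Its other 2 probe sets held identical values, 5.37, 5.74 and 5.44 in IDTC cells, against 7.54, 7.06 and 6.73 in Parent cells. They fell by 1.59 ± 0.20 (limma adjusted p 0.000435 in a fit over 19460 probe sets). TRIM51 has near-identical copies in the genome, so which copy gave the signal is uncertain and the size differed between its probe sets.

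TRIM14 (probe set 8162729) lacks a RING finger and is known as an adaptor that binds MAVS at mitochondria and stabilises the DNA sensor cGAS. It measured 6.68, 6.57 and 6.68 in IDTC cells, against 7.82, 7.68 and 7.70 in Parent cells. It fell by 1.09 ± 0.06 on the log2 scale (2.13-fold, limma adjusted p 8.49e-06).

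TRIM47 (probe set 8018494), a PRY-SPRY ligase reported to act on the deubiquitinase CYLD, lay just under that size. Its values were 8.05, 8.06 and 8.02 in IDTC cells, against 9.06, 9.02 and 9.04 in Parent cells, which are narrow groups with a wide gap. It fell by 1.99-fold (limma adjusted p 3.88e-06), and it passed 2-fold when arrays were re-centred on the median of all probe sets and without IDTC replicate 2 or Parent replicate 2.

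**Figure D2:**
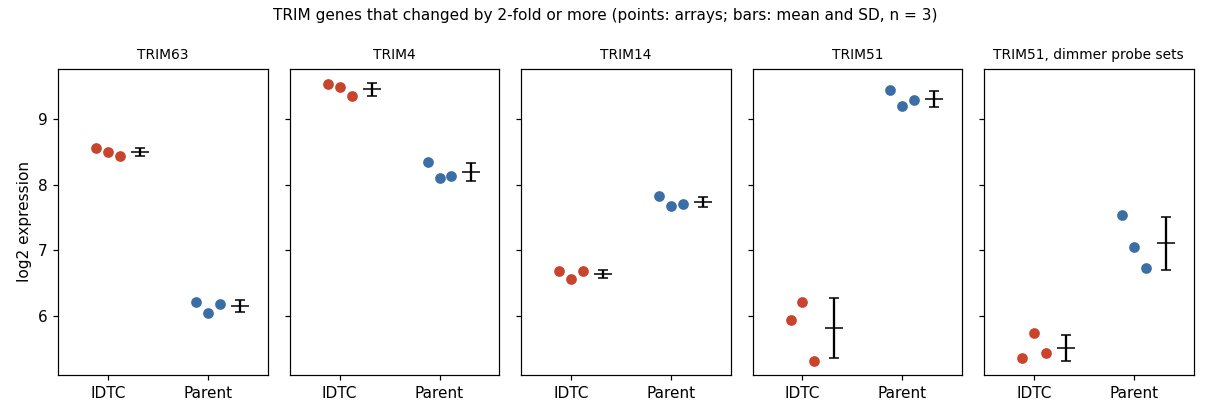
Log2 expression of the 4 TRIM genes that changed by 2-fold or more, with 1 point per array and the mean and SD of 3 arrays beside them. The last panel gives the 2 dimmer TRIM51 probe sets, which hold identical values and show a smaller difference in the same direction.

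The PRY-SPRY class, whose C-terminal domain often recognises viral or immune targets, held 27 of the 55 genes. In it 3 rose and 8 fell, or 40.7% called, beside 46.6% of all genes (21.7% higher and 24.9% lower). Of its 19 genes outside the dimmest 40% of all genes 57.9% were called, beside 65% of all genes there. TRIM68, a ligase that coactivates the androgen receptor, measured 8.75, 8.78 and 8.69 in IDTC cells, against 8.04, 7.94 and 8.03 in Parent cells (0.74 ± 0.06, limma adjusted p 3.01e-05). TRIM16, which lacks a RING finger and helps to clear damaged endomembranes by autophagy, measured 8.46, 8.51 and 8.43 in IDTC cells, against 7.85, 7.77 and 7.71 in Parent cells (0.69 ± 0.06, adjusted p 5.22e-05). These 2 rose with TRIM4, each with its IDTC arrays clear of its Parent arrays.

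The smaller decreases of the class were TRIM62, TRIM27, TRIM11, TRIM65 and TRIM25. TRIM62 is DEAR1, a regulator of epithelial polarity, and fell by 0.39 ± 0.07. TRIM27, the RET finger protein, measured 8.76, 8.71 and 8.63 in IDTC cells, against 9.12, 9.02 and 9.06 in Parent cells, and fell by 0.37 ± 0.06 (limma adjusted p 0.00154). TRIM11 has been linked to the removal of misfolded proteins and fell by 0.34 ± 0.08. TRIM65, a ligase of the RNA sensor MDA5, fell by 0.24 ± 0.06, and TRIM25, which adds ubiquitin to RIG-I, fell by 0.22 ± 0.06 to 9.24 ± 0.04 in IDTC cells, against 9.46 ± 0.06 in Parent cells (SD, n = 3 each). The last 2 calls (adjusted p 0.0148 and 0.0141) were lost under quantile normalization (0.0511 and 0.0595) and without Parent replicate 3 (0.0599 and 0.0533).

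Beside TRIM25, the antiviral members TRIM5, TRIM21 and TRIM22 of the class were examined, and these did not pass the test. TRIM5, the retroviral capsid restriction factor, had a log2 fold change of -0.10 with a 95% interval of -0.23 to 0.04. TRIM21, the cytosolic antibody receptor, had -0.05 with an interval of -0.24 to 0.14. TRIM22, an interferon-induced restriction factor, had 0.05 with an interval of -0.20 to 0.29, at a dim log2 level of 3.91 ± 0.16 in IDTC cells and 3.86 ± 0.14 in Parent cells. Each interval spans changes of either sign, and TRIM22 lies among the dimmest 40% of genes, where the interval does not bound a change hidden by background signal.

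**Figure D3:**
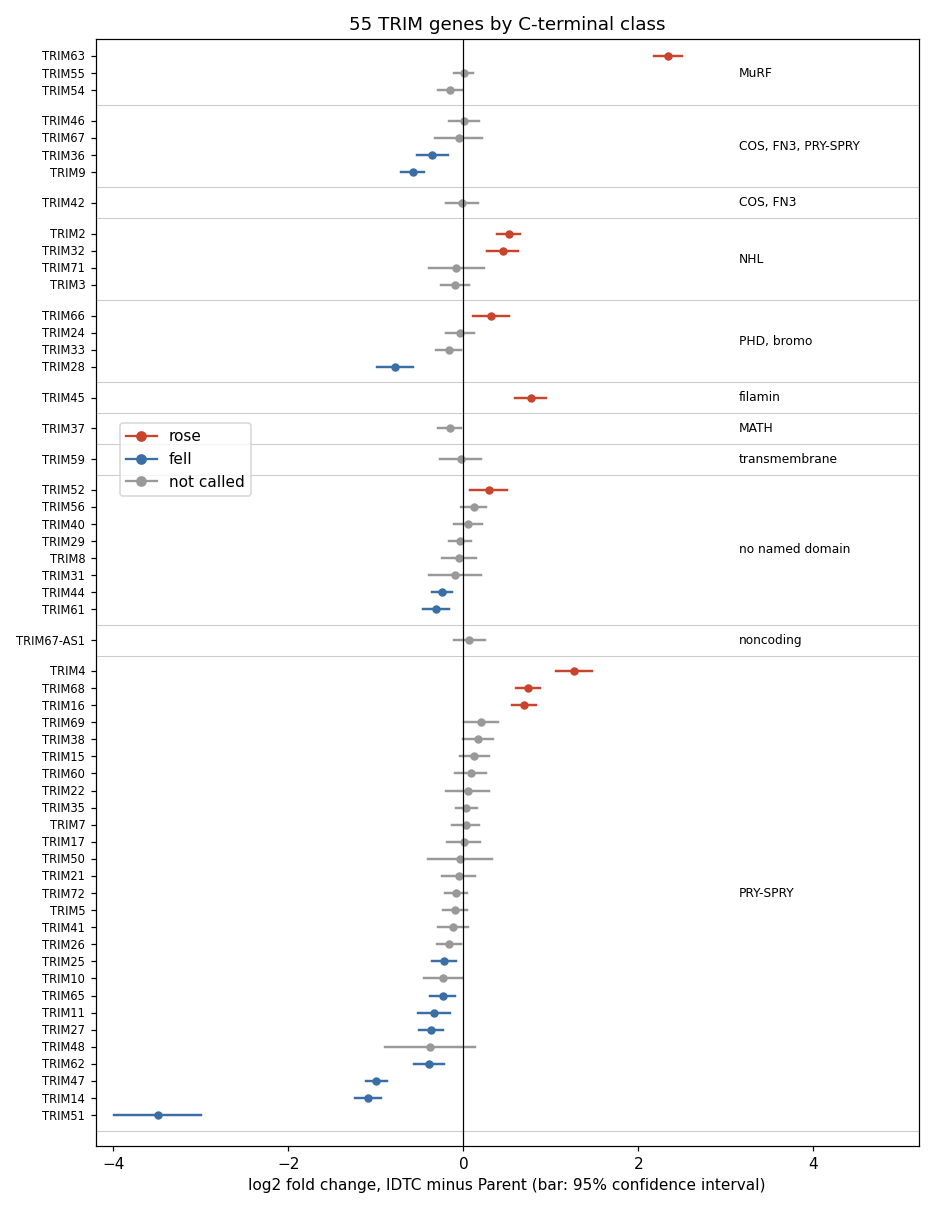
Log2 fold change, IDTC minus Parent, of the 55 TRIM genes grouped by the C-terminal part, with 95% confidence intervals. Genes that rose stand in red, genes that fell in blue and genes not called in grey, and the widest interval belongs to TRIM48, which was not called.

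Of 14 RNA and DNA sensing genes, the pathways that the antiviral members serve, 6 rose and 5 fell (median -0.09). That is 78.6% called, beside 46.6% of all genes (21.7% higher and 24.9% lower), with no test of the list. Outside the dimmest 40% of genes 81.8% of the list was called, beside 65% of all genes. The count higher was 3 after re-centring on array medians and without IDTC replicate 1 or 2 or Parent replicate 2. CGAS, the DNA sensor that TRIM14 stabilises, measured 5.92, 5.88 and 5.53 in IDTC cells, against 8.33, 8.44 and 8.58 in Parent cells, and fell by 2.68 ± 0.12 (limma adjusted p 2.42e-06). TRAF3, a signalling ligase, fell by 0.88 ± 0.08, whereas MAVS, the mitochondrial adaptor, rose by 0.64 ± 0.06. IRF3, ZC3HAV1 and TBK1 also fell, and IFIH1, which encodes MDA5, rose by 0.61 ± 0.08. RIGI itself had -0.06 with an interval of -0.26 to 0.15. It lies among the dimmest 40% of genes, where the interval does not bound a change hidden by background signal. Of 30 type I interferon response genes 12 rose and 7 fell (median 0.09), or 63.3% called beside the same 46.6% of all genes. Outside the dimmest 40% of genes 86.7% of them were called, beside 65% of all genes. SAMD9L rose by 2.51 and IFIT1 by 1.48, and PARP9 fell by 1.26. IRF3, ZC3HAV1, TBK1, IFIH1 and RIGI were named after their values were seen.

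The class with a PHD finger and bromodomain holds the TIF1 proteins, which read histone marks and repress or activate transcription. TRIM28, or KAP1, is the corepressor that KRAB zinc finger proteins recruit to silence retroelements. It measured 9.15, 9.19 and 9.17 in IDTC cells, against 9.76, 10.05 and 10.04 in Parent cells. Parent replicate 1 lay under the other 2 Parent arrays and still above every IDTC array. TRIM28 fell by 0.78 ± 0.09 (1.72-fold, limma adjusted p 0.000192). TRIM66, the testis-enriched TIF1 member, rose by 0.31 ± 0.09 (adjusted p 0.0186), a call lost in 4 of the 6 leave-one-out fits (0.0533 to 0.0657, without IDTC replicate 2 or 3 or Parent replicate 1 or 3). TRIM24, a coregulator of nuclear receptors, had -0.04 with a 95% interval of -0.20 to 0.12. TRIM33, which acts on SMAD4, had -0.17 with an interval of -0.31 to -0.03 and an adjusted p of 0.0561.

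Of 12 KAP1 silencing partners 5 rose and 4 fell (median 0.01). All 12 lie outside the dimmest 40% of genes, and their 75% called stands beside 65% of all genes there. CHD3, of the NuRD remodelling complex, rose by 0.72 ± 0.05, and SETDB1, the histone methyltransferase that KAP1 recruits, rose by 0.60 ± 0.06. HDAC2 fell by 0.70 ± 0.09. ATF7IP, MPHOSPH8 and CBX1 also rose, and HDAC1, CBX3 and PPHLN1 also fell. The MAGE proteins bind RING ligases, TRIM28 and TRIM27 among them. Their list of 12 genes includes USP7, which is not a MAGE gene. Of the 12 genes 5 fell, USP7 among them, and 2 rose, or 58.3% called beside 46.6% of all genes. Outside the dimmest 40% of genes 75% of the list was called, beside 65% of all genes. The count that rose was 1 after re-centring on array medians and without IDTC replicate 1 or 2 or Parent replicate 2 or 3. MAGEA1 measured 7.77, 7.72 and 7.55 in IDTC cells, against 9.56, 9.34 and 9.38 in Parent cells, and fell by 1.75 ± 0.09 (limma adjusted p 3.88e-06). MAGEA4 fell by 1.61 ± 0.08 and MAGEB2 by 1.20 ± 0.09. USP7 and MAGEA10 fell by less, and MAGED1 and MAGED2 rose. MAGE genes resemble each other closely, so signal may be shared between copies.

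Among the NHL repeat ligases 2 of 4 rose, or 50% called beside 46.6% of all genes (21.7% higher). All 4 lie outside the dimmest 40% of genes, where 65% of all genes were called. TRIM2, a neuronal ligase of neurofilament light chain, measured 10.96, 10.99 and 10.86 in IDTC cells, against 10.42, 10.41 and 10.41 in Parent cells (0.52 ± 0.06, limma adjusted p 0.000188). TRIM32, the ligase mutated in a limb-girdle muscular dystrophy, measured 8.43, 8.33 and 8.21 in IDTC cells, against 7.93, 7.78 and 7.92 in Parent cells (0.45 ± 0.08, adjusted p 0.0022). TRIM3, a brain-enriched ligase, had -0.10 with a 95% interval of -0.26 to 0.06. TRIM71, the embryonic regulator LIN41, had -0.08 with an interval of -0.39 to 0.23.

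The microtubule-binding class with a COS box, a fibronectin repeat and a PRY-SPRY domain held 4 genes, of which 2 fell. That is 50% called beside 46.6% of all genes (24.9% lower). Among its 3 genes outside the dimmest 40% of all genes 33.3% were called, beside 65% of all genes there. TRIM9, a neuronal ligase of the netrin pathway, measured 7.34, 7.36 and 7.22 in IDTC cells, against 7.89, 7.88 and 7.89 in Parent cells, and fell by 0.58 ± 0.06 (limma adjusted p 0.000108). TRIM36 measured 5.51, 5.51 and 5.42 in IDTC cells, against 5.97, 5.83 and 5.71 in Parent cells, and fell by 0.36 ± 0.08 (adjusted p 0.00608). TRIM46, which organises axonal microtubules, had 0.00 and TRIM67 had -0.06, neither called. MID1, a TRIM-family protein with the same domains under another name, went the other way. Its values were 9.53, 9.56 and 9.43 in IDTC cells, against 8.24, 8.10 and 8.20 in Parent cells, and it rose by 1.33 ± 0.06 (2.51-fold, adjusted p 3.27e-06). It was the 1 called gene of 7 TRIM-family proteins with other names, or 14.3% beside 46.6% of all genes. Only 2 of those 7 lie outside the dimmest 40% of genes, and 50% of these were called, beside 65% of all genes there. PML, the scaffold of nuclear bodies, had 0.14 with an interval of -0.02 to 0.30.

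TRIM45, the member with a filamin repeat, measured 7.26, 7.13 and 7.02 in IDTC cells, against 6.35, 6.42 and 6.33 in Parent cells, and rose by 0.77 ± 0.07 (limma adjusted p 9.4e-05). Of 8 members without a named C-terminal domain 1 rose and 2 fell, or 37.5% called beside 46.6% of all genes (21.7% higher and 24.9% lower). Among the 5 of them outside the dimmest 40% of all genes 60% were called, beside 65% of all genes there. TRIM52 rose by 0.29 ± 0.09 (adjusted p 0.0357), to 6.97 ± 0.15 in IDTC cells, against 6.68 ± 0.10 in Parent cells (SD, n = 3 each). The lowest IDTC value, 6.81, was barely above the highest Parent value, 6.79. That call was lost without IDTC replicate 1 or 2 or Parent replicate 1 or 2 (0.0952 to 0.116). TRIM44, which carries a ubiquitin-binding zinc finger in place of a RING, fell by 0.25 ± 0.05 and TRIM61 by 0.31 ± 0.06. TRIM8 (-0.05, interval -0.25 to 0.14) and TRIM29 (-0.04, interval -0.17 to 0.08) were not called. Nor were TRIM37, the MATH-domain ligase of centrosome control (-0.16, adjusted p 0.0556), and TRIM59, which spans a membrane (-0.03, interval -0.27 to 0.21). TRIM29 and TRIM59 lie among the dimmest 40% of genes, where an interval does not bound a change hidden by background signal.

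Of the 55 members 7 had more than 1 probe set with a single symbol, and within none did the sign differ. In RefSeq gene order each measured TRIM gene was compared with the next one only. Of these successive pairs 10 had at most 4 protein-coding genes between them. TRIM47 and TRIM65 are direct neighbours and both fell, by 1.00 and 0.24. TRIM11 fell beside TRIM17 (0.00) and TRIM61 beside TRIM60 (0.08), neither neighbour called. In the run of TRIM31, TRIM40, TRIM10, TRIM15 and TRIM26 none was called, with log2 fold changes between -0.23 and 0.12.

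Of the 43 windows before a TRIM start, 22 held a GC box, against 42.3% of 27305 RefSeq promoters. They included 2 of the 7 genes that rose, 9 of the 10 that fell and 11 of the 26 not called. The ISRE core was in 7, against 3.07% of all promoters: TRIM16 and TRIM2 rose, TRIM44 and TRIM14 fell and 3 were not called. CATGTG was in 3, against 9.54%, and TRIM63 was the called one. Its 2 matches are found in 1.19% of all promoters. CACGTG was in 4 (TRIM66 and TRIM25 among the called), against 6.49%, and the AP-1 site in 5 (TRIM44 among the called), against 6.6%. No test was made of these shares. Motif shares among all genes called higher, lower or not called were not computed, so the TRIM counts by direction lack a background.

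The other RING finger genes, with symbols beginning RNF, gave 43 called of 78, or 55.1%, of which 26 rose and 17 fell, with a median of 0.04, beside 46.6% of all genes called. Outside the dimmest 40% of genes 61.5% of them were called, beside 65% of all genes. The difference from the TRIM genes was not tested. The 78 symbols include RNF213-AS1, an antisense transcript that was not called, and the pseudogenes RNF126P1 and RNF216P1, which both fell. RNF157 fell by 2.23 ± 0.08, RNF122 rose by 1.85 ± 0.08 and RNF150 rose by 1.43 ± 0.06. Of 10 ubiquitin E1 and E2 enzymes 6 fell and 2 rose (median -0.20), or 80% called beside 46.6% of all genes (24.9% lower and 21.7% higher). Of the 9 enzymes outside the dimmest 40% of genes 88.9% were called, beside 65% of all genes there. Leaving out 1 array gave 4 to 5 that fell and 1 to 2 that rose, and re-centring on array medians gave 4 and 1. The lowest counts that fell, 4, came without IDTC replicate 2 or 3 or Parent replicate 1 or 2, and 1 gene rose in each of these fits but that without IDTC replicate 3. UBE2K fell by 0.70 ± 0.05, UBE2N, which builds the chains used in RIG-I signalling, fell by 0.54 ± 0.05, and UBA1, the main activating enzyme, fell by 0.42 ± 0.05. UBE2D4 and UBE2L6 rose.

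**Figure D4:**
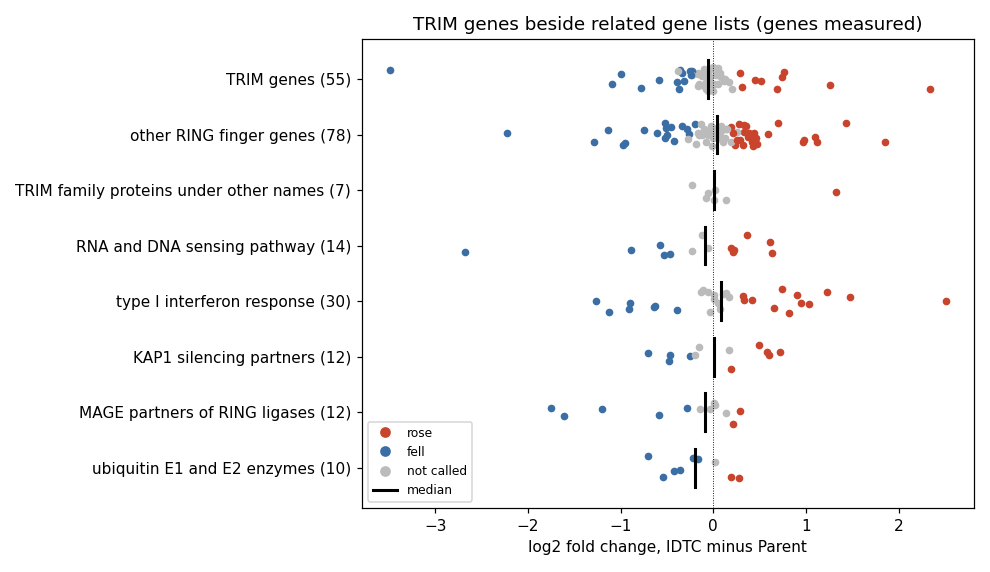
Log2 fold change, IDTC minus Parent, of each measured gene in the TRIM family and in 7 related lists, with genes that rose in red, genes that fell in blue and genes not called in grey. The bar is the list's median, which lay between -0.20 and 0.09 in every list shown.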

How the data were processed

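Total RNA of WM164 cells was measured on 6 Affymetrix whole-transcript arrays, and the authors deposited log2 expression values for 33297 probe sets. Per the submitters' processing notes, RMA, Affymetrix Expression Console and Partek 6.6 were used, with no role or order given. Of the genome build, nothing is given in the sources used here. The deposited table holds no detection call, so the change of a dim gene may be understated, and the number of arrays limits the precision. Array medians were 6.29 to 6.36 for IDTC and 6.25 to 6.32 for Parent arrays. Of the probe sets, 19460 had 1 symbol, 1754 had several and 12083 were unlisted by the annotation. Gene numbers matched 19429 of the 19460 to RefSeq, with 0 symbols changed.

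Groups came from the sample titles. The 2-sided test was limma 3.58.1 (lmFit, eBayes) under R 4.3.3, with no covariate and no filter on dim genes, and the procedure was tested on simulated data. Figures were drawn with matplotlib 3.10.9. The members, lists and tests were chosen with earlier results of these data known. Named genes were the TRIM members called at 2-fold or more, the 12 highest and 12 lowest called members with no overlap between groups, a set of well-studied members, and from each list up to 3 called genes with the largest change, or up to 2 as values where none was called. Genes the text gives outside that rule were chosen after their values were seen. Alternatives were scaling, probe set choice, a filter, the variance prior, array weights, a replicate block, leaving out each array and a stricter threshold.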

Additional observations from a re-analysis of the deposited data

How the results depend on the processing

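All 127 alternative values of the comparison totals stayed in the same direction and within 1.5 times the reported counts, apart from the TRIM median, which was 0.01 after re-centring on the median of the genes tested. TRIM genes called ranged between 18 (adjusted p under 0.01) and 30 (array weights), beside 22 as reported. Leaving out each replicate in turn gave 19 to 24 called, 7 to 10 higher, 11 to 14 lower, 4 to 5 at 2-fold or more and a median of -0.08 to -0.02. The 2 scalings chosen after seeing the data were re-centring and quantile normalization of the genes tested, and they gave 11 and 11, and 11 and 12, TRIM genes higher and lower. Over all genes the reported split was 3996 higher and 4592 lower, and under these scalings it was 4846 and 4017, and 4504 and 4403.

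Of the 33 named TRIM genes 7 changed side of the threshold under at least 1 alternative, in 29 of 524 values, and no called gene reversed. TRIM25, TRIM65, TRIM66 and TRIM52 lost their call in places. Under quantile normalization of the genes tested the adjusted p was 0.148 for TRIM25 and 0.102 for TRIM65. TRIM33, TRIM37 and TRIM3 gained one, with 0.0145 and 0.0323 for TRIM33 and TRIM37 under a trended robust prior. Counts of small lists moved by 1.5 times or more in 57 values.

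The titles number samples 1 to 3 in both groups and do not state a pairing. Same-numbered samples had deviations from their group means that correlated at 0.31, -0.19 and 0.26. Within a group of 3 such deviations offset one another, so these values cannot decide whether the samples were paired. With the replicate block 23 TRIM genes were called, 10 higher and 13 lower.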
